A study of Mus musculus with 8 samples.

Results

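The 10 genes described here, *Lpl*, *Fabp4*, *Fabp5*, *Gpnmb*, *Apoe*, *Cd36*, *Spp1*, *Cd9*, *Lgals3* and *Plin2*, form a list associated with lipid-laden macrophages. They were taken by symbol from the 32285 genes of the deposited count tables, and all 10 were found. The tables hold single-cell RNA sequencing (scRNA-seq) counts of CD45+ immune cells from orthotopic mammary tumors of female C57BL/6 mice on day 18 after implantation. E0771 is a mouse mammary carcinoma line (E0771 parental, 2 mice). E0771-Res1 and E0771-Res2 (3 mice each) are 2 lines that the study established from E0771 tumors that relapsed after paclitaxel plus anti–PD-1 treatment, so each is a single derivative line and mice within a group carry the same line. The parental mice are numbered 1 and 3 in the labels, parental replicate 2 was not analysed here, and the labels give no treatment of these 8 mice and no host age.

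Macrophages that take up lipid from dying cells or lipoproteins hydrolyze it, bind the released fatty acids in the cytosol, store them in droplets and export cholesterol, and a set of genes for these steps is often seen together with the lipid-sensing receptor TREM2. Complement C1q, whose A chain is encoded by *C1qa*, is made by many tissue and tumor macrophages and at low levels by fresh monocytes. The genes were therefore compared between myeloid cells with many and with few *C1qa* transcripts, between cells with and without a *Trem2* transcript, and among the 3 tumor lines.

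Of the genes of lipid delivery, *Lpl* (ENSMUSG00000015568, chr8:68880491-68907448, plus strand) encodes lipoprotein lipase, *Cd36* (ENSMUSG00000002944, chr5:17781690-17888801, minus strand) a scavenger receptor and fatty acid translocase, and *Apoe* (ENSMUSG00000002985, chr7:19696109-19699188, minus strand) apolipoprotein E, the carrier of cholesterol in efflux. Inside the cell, *Fabp4* (ENSMUSG00000062515, chr3:10204088-10208576, minus strand) and *Fabp5* (ENSMUSG00000027533, chr3:10012548-10016607, plus strand) encode related fatty acid–binding proteins, and *Plin2* (ENSMUSG00000028494, chr4:86648386-86670060, minus strand) encodes perilipin 2, a coat protein of lipid droplets. The other genes encode a lysosome-associated transmembrane glycoprotein (*Gpnmb*, ENSMUSG00000029816, chr6:49036546-49070929, plus strand), the glycan-binding galectin-3 (*Lgals3*, ENSMUSG00000050335, chr14:47367751-47386160, plus strand), a tetraspanin (*Cd9*, ENSMUSG00000030342, chr6:125460266-125494791, minus strand) and the secreted phosphoprotein osteopontin (*Spp1*, ENSMUSG00000029304, chr5:104435118-104441050, plus strand). Positions are from GENCODE release M21 on GRCm38. *Fabp4* and *Fabp5* are paralogs, and how the counting treated reads that fit both was not tested.

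RefSeq windows around the transcription start (GRCm38.p6, 250 bases before and 50 after) were matched for 7 of the 10 genes, with 10 windows between them. *Lpl*, *Fabp4* and *Fabp5* were not matched. The windows were searched on both strands for CACGTG (the E-box core), TCATGTG (an M-box core), TGANTCA (the AP-1 site), AGGTCA (the nuclear receptor half-site) and GAGGAA (an ETS core). These were found in 7.15%, 3.77%, 7.81%, 16.3% and 28.3% of all 32851 windows, respectively. Within the 10 windows, CACGTG was found in *Plin2* only, TGANTCA in *Gpnmb* only, AGGTCA in *Plin2* and *Cd36*, GAGGAA in *Spp1* and *Apoe*, and TCATGTG in none. The 3 stretches that hold a match next to the start are shown 5′ to 3′, from 80 bases before the start to base 20, with the matching letters in capitals. They are the starts of a gene that marked E0771-Res2 (*Gpnmb*), of the lipid droplet gene (*Plin2*) and of the gene that tracked *C1qa* most closely (*Apoe*). The starts used here are those of RefSeq and lie 28, 1 and 0 bases from the GENCODE starts of *Gpnmb*, *Plin2* and *Apoe*, respectively. The *Gpnmb* stretch, with its match, ends before the GENCODE start given above. A match describes the letters and is not a measured binding site.
Gpnmb, chr6:49036438-49036537, plus strand: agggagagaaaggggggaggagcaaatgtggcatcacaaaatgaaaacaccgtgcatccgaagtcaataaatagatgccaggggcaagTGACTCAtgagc
Plin2, chr4:86670040-86670139, minus strand: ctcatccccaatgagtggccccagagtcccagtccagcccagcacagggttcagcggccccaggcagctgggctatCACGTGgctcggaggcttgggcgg
Apoe, chr7:19699169-19699268, minus strand: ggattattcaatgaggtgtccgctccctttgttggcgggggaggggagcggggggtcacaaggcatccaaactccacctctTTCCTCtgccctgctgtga

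Of 11430 deposited cells, 10605 had 500 to 6000 genes and under 10% mitochondrial unique molecular identifiers (UMIs, counted transcripts), and 8090 of these passed a marker gate for myeloid cells. Cells with at least 10 *C1qa* UMIs (1949 cells, 88 to 484 per mouse) are called C1qa-high and cells with at most 1 (4310 cells, 281 to 805 per mouse) C1qa-low; the 1831 cells between were left out of the comparisons. Median depth was 5599 to 9027 UMIs in C1qa-high and 3880 to 6268 in C1qa-low cells and was lowest in E0771-Res2, and no cell barcode was shared between mice. The gates were checked against markers that did not define them by *C1qa*. The summed level of 7 other macrophage genes was 11501 to 15610.1 CPM (UMIs per 1000000 UMIs of the gate) in C1qa-high and 1655 to 2624 CPM in C1qa-low cells, and that of 6 monocyte genes 1753 to 4203 and 7859 to 11876 CPM. The 5 adipocyte genes summed to at most 2.64 CPM in either gate of any mouse except C1qa-high cells of E0771-Res2 replicate 2 (32.4 CPM, 51 UMIs, all of *Cfd*, of which a single cell held 50). The share of C1qa-high cells among myeloid cells was 18.8% to 32.3% and averaged 23.7% in the 6 resistant and 20.1% in the 2 parental tumors (two-sided exact permutation test, p = 0.393).

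C1qa-high macrophages differed from C1qa-low cells in some of these genes and not as a block. *Apoe* and *Lpl* carried the difference, *Plin2*, *Cd36* and *Fabp5* were slightly higher, *Spp1* and *Cd9* were lower, and *Fabp4*, *Gpnmb* and *Lgals3* were not called. In C1qa-high cells, *Apoe* was at 4872 CPM in the lowest mouse, 8014 CPM at the median and 9550.3 CPM in the highest, against 1425, 1636 and 2062 CPM in C1qa-low cells. All 8 mice were thus higher in C1qa-high cells, and the groups did not overlap. The fitted difference was 2.02 on the log2 scale (SE 0.08, adjusted p = 3.25e-13, edgeR quasi-likelihood test with mouse as a block). *Lpl* ranged from 214 to 803 CPM (median 533) in C1qa-high cells and from 114 to 300.5 CPM (median 184) in C1qa-low cells. It was higher in C1qa-high cells of 8 of 8 mice (log2 1.35, SE 0.11, adjusted p = 3.53e-09), although the lowest C1qa-high mice, both parental, lay within the C1qa-low range.

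Among the cytosolic lipid genes, *Plin2* was higher by 0.40 (SE 0.05, adjusted p = 2.32e-06) and *Fabp5* by 0.28 (SE 0.07, adjusted p = 0.00141) on the log2 scale. *Fabp5* was one of the most abundant genes of the list, at 1834 to 4411 CPM in C1qa-high and 1553 to 3656 CPM in C1qa-low cells, so the ranges overlapped widely. *Fabp4* was sparse (19.8 to 223 CPM in C1qa-high and 21.0 to 126 CPM in C1qa-low cells) and differed by 0.08 (SE 0.23, adjusted p = 0.802). For *Cd36* the difference of 0.38 (SE 0.15, adjusted p = 0.0360) was called, with 16.4 to 89.0 CPM in C1qa-high cells. The call was lost without E0771-Res2 replicate 2 (0.24, adjusted p = 0.171), E0771-Res2 replicate 3, E0771-Res1 replicate 1 or E0771-Res1 replicate 3, and when cells were gated on thinned counts the direction turned (-0.07, adjusted p = 0.775).

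*Lgals3* was high in both gates, at 5171 to 7238 CPM in C1qa-high and 4553 to 6785 CPM in C1qa-low cells, with a difference of 0.06 (SE 0.05, adjusted p = 0.308). *Gpnmb* differed by 0.19 (SE 0.10, adjusted p = 0.119). *Spp1* was lower in C1qa-high cells by 1.01 (log2 -1.01, SE 0.20, adjusted p = 3.69e-04), at 148 to 378 CPM against 184 to 828 CPM. *Cd9* was lower likewise (log2 -0.77, SE 0.11, adjusted p = 1.15e-05), at 61.2 to 211 CPM against 130 to 306 CPM. In all, 7 of the 10 genes were called, 5 higher and 2 lower, where 53.6% of the 8842 genes tested were called, so most of the count is matched by the background share. The median over the list was 0.24 and over all genes 0.02.

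**Figure D1:**
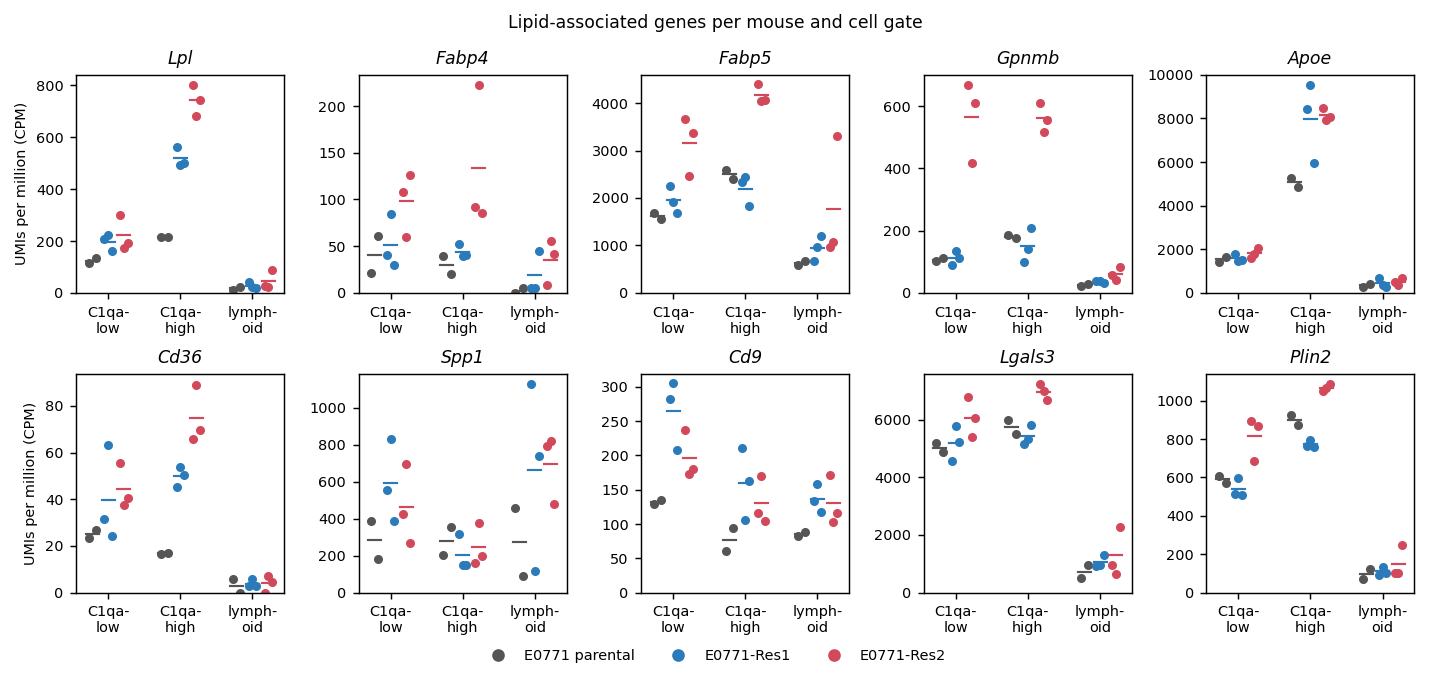
UMIs per 1000000 UMIs (CPM) of each gene in each mouse, in C1qa-low myeloid, C1qa-high myeloid and lymphoid cells. Points are mice colored by tumor line and short lines are means, with 2 parental, 3 E0771-Res1 and 3 E0771-Res2 mice. *Apoe* and *Lpl* rise from C1qa-low to C1qa-high cells, *Gpnmb* separates E0771-Res2 (418 to 669 CPM) in both myeloid gates, and *Spp1* reaches its highest values in lymphoid cells.

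As a reference for free RNA, 438 lymphoid-gated cells were counted at the same depth of 2000 UMIs. On average over mice (n = 8), 33.4% ± 9.9 (SD) of C1qa-high cells held an *Lpl* UMI, against 15.3% ± 3.4 of C1qa-low and 5.92% ± 3.9 of lymphoid cells. For *Gpnmb* these shares were 24.5% ± 14, 19.6% ± 12 and 7.96% ± 4.5. *Spp1* was seen in 13.0% ± 4.0 of C1qa-high and 15.5% ± 2.6 of C1qa-low cells, below its 18.4% ± 4.5 in lymphoid cells, and *Cd9* in 16.2% ± 4.7 of C1qa-high against 16.0% ± 3.4 of lymphoid cells. In C1qa-high cells the *Spp1* share was thus below that in lymphoid cells and the *Cd9* share about equal to it. *Cd9* was seen in 22.2% ± 4.8 of C1qa-low cells. The counts of *Spp1* in both myeloid gates and of *Cd9* in C1qa-high cells, here and below, are described without reading them as expression by those cells. Without thinning, *Lpl*, *Gpnmb*, *Spp1* and *Cd9* were seen in 56.4%, 41.5%, 27.6% and 37.1% of C1qa-high cells. The transcripts were unevenly spread. The tenth of C1qa-high cells with most *Spp1* held a median of 92.1% of its UMIs, with up to 40 in a cell, and the corresponding share was 26.8% for *Lgals3* and 38.8% for *Apoe*. Such a share depends on detection, and at 2000 UMIs 99.0% of C1qa-high cells held *Lgals3* and 88.6% *Apoe*. The genes are therefore not compared in spread by it. In lymphoid cells the tenth with most *Spp1* held a median of 90.8% of its UMIs, with up to 48 in a cell, so that its lymphoid UMIs were not spread evenly over cells. Doublets, lymphoid expression and free RNA were not tested as sources.

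Levels were next followed over 6 ranges of *C1qa* UMIs in all myeloid cells, as a description without a test. Levels were taken after thinning each cell to 2000 UMIs. The ranges were set on unthinned counts, so *C1qa* itself was not sampled at equal depth. *Apoe* rose throughout, from a median over mice of 1609 CPM in cells with no *C1qa* UMI to 4479 CPM at 10 to 19 UMIs and 8972 CPM at 20 or more, and *Trem2* was likewise higher in the last range than at 10 to 19 UMIs in 8 of 8 mice. *Lpl* reached 489 CPM at 20 or more *C1qa* UMIs from 144 CPM at none, with 8 of 8 mice higher, but not steadily, since it was at 417 CPM at 5 to 9 and 296 CPM at 10 to 19. *Cd36* had its highest median, 66.0 CPM, at 5 to 9. By contrast, *Gpnmb*, *Fabp5*, *Plin2*, *Lgals3* and *Fabp4* had their highest median at 10 to 19 *C1qa* UMIs. *Gpnmb* fell from 374 to 160 CPM between the last 2 ranges (lower in 7 of 8 mice, median ratio of 10–19 to 20 or more 1.64), *Plin2* from 1060 to 817 CPM (7 of 8 mice), *Fabp4* from 138 to 37.4 CPM (7 of 8) and *Lgals3* from 6676 to 5595 CPM (6 of 8). For *Fabp5* the medians were 3650 and 2422 CPM, but only 5 of 8 mice were lower. *Spp1* and *Cd9* were lower at 20 or more *C1qa* UMIs than at none in 8 of 8 mice. E0771-Res1 replicate 2 had 19 cells in the range of 10 to 19, and among the 7 mice with at least 20 cells *Gpnmb* was lower in the last range in 7 and *Plin2* and *Fabp4* in 6.

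**Figure D2:**
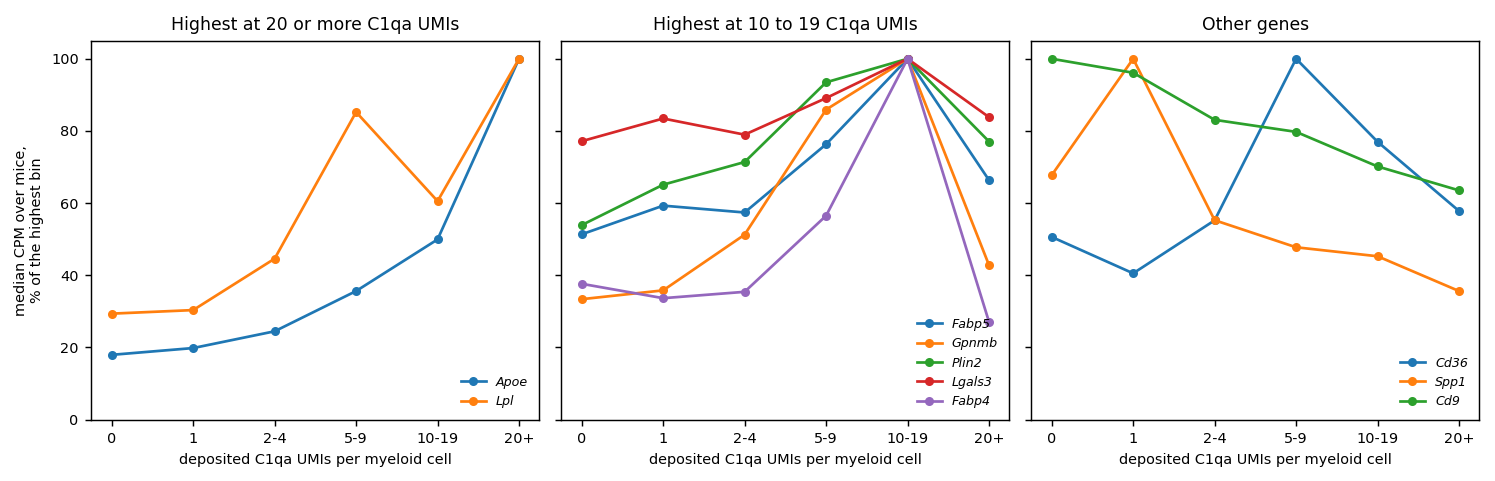
Median level over 8 mice at each range of *C1qa* UMIs per myeloid cell, as a percentage of the gene's highest range. Ranges are of unthinned *C1qa* UMIs, and levels are from cells thinned to 2000 UMIs. *Apoe* and *Lpl* peak at 20 or more *C1qa* UMIs and 5 other genes at 10 to 19, while *Cd9* falls from the first range to the last.

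The second comparison split cells by *Trem2* at equal depth. After thinning, a *Trem2* UMI was found in 759 of 1936 C1qa-high and 475 of 3662 C1qa-low cells, and the split says whether a transcript was sampled, not whether the cell lacks it. The share of C1qa-high cells with *Trem2* was 21.1% and 19.5% in the parental line, 40.3%, 38.9% and 39.5% in E0771-Res1, and 46.5%, 43.1% and 40.8% in the E0771-Res2 mice. All resistant tumors were higher than both parental tumors, by 21.2 percentage points on average (two-sided exact permutation test, p = 0.0357, the smallest these 28 splits allow; 0.0536 adjusted over 3 shares). In C1qa-low cells the mean shares were 7.50% ± 2.1 (SD, n = 2), 11.7% ± 1.2 (n = 3) and 15.7% ± 0.55 (n = 3).

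Within C1qa-high cells, 6 of the 9 genes that passed the filter on low counts were higher in cells with a *Trem2* UMI and none was lower, against 4.56% of 3485 genes called (*Fabp4* did not pass). The median over the 9 was 0.61 and over all genes 0.00 on the log2 scale. *Apoe* was at 8991 to 12114 CPM with *Trem2* and 4140 to 7208 CPM without, so that the groups did not overlap (log2 0.97, SE 0.06, adjusted p = 3.20e-22, higher in 8 of 8 mice). *Fabp5* was 0.52 higher (SE 0.06, adjusted p = 3.88e-09), also in 8 of 8 mice. *Cd36* was 0.80 higher (SE 0.23, adjusted p = 0.0260) in 5 of 8 mice, *Gpnmb* 0.65 (SE 0.12, adjusted p = 6.94e-05) in 5, *Lpl* 0.61 (SE 0.12, adjusted p = 2.44e-04) in 6 and *Spp1* 0.62 (SE 0.17, adjusted p = 0.0151) in 6.

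For *Lpl* and *Gpnmb*, the mouse that went most against these values was E0771-Res1 replicate 2, with 35 cells holding *Trem2*, in which *Gpnmb* was at 14.3 CPM with *Trem2*, from 1 UMI. For *Spp1* it was parental replicate 3, with 0 UMIs in its 17 cells with *Trem2* and 60 in the cells without. By line, the *Gpnmb* ratio with over without *Trem2* was 2.00, 1.63 and 1.85 in E0771-Res2 and 1.21, 0.07 and 0.96 in E0771-Res1. In parental it was 1.93 and 0.85. The *Lpl* ratio was 1.96, 1.93 and 1.91 in E0771-Res2, 1.66, 0.22 and 0.81 in E0771-Res1 and 1.46 and 1.62 in parental. Whether these *Trem2* differences change with the line was not tested. *Spp1* kept its call in 8 of 18 alternatives: thinned to 3000 UMIs its difference was 0.06 (adjusted p = 0.913), and leaving out parental replicate 1, E0771-Res1 replicate 1 or any of the E0771-Res2 mice ended its call (adjusted p = 0.0544 to 0.154). The *Cd36* call was lost without parental replicate 1 (adjusted p = 0.0641) or E0771-Res2 replicate 2 (adjusted p = 0.0555). Under DESeq2, *Apoe* and *Fabp5* were called, while *Lpl* (0.36, adjusted p = 0.793), *Gpnmb* (0.24, adjusted p = 0.907) and *Spp1* (0.23, adjusted p = 0.958) were not. *Cd9*, *Lgals3* and *Plin2* differed by 0.41, 0.16 and 0.14 (adjusted p = 0.142, 0.102 and 0.392).

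In C1qa-low cells, 8 of the 10 genes were higher with *Trem2*, none lower, against 6.44% of 4147 genes, with a median of 0.76 over the list and 0.01 over all genes. *Lpl* showed the largest difference of the list, 1.56 (SE 0.14, adjusted p = 1.51e-10), at 265 to 688 CPM with *Trem2* and 62.2 to 196 CPM without. The mice did not overlap, and the median ratio over the 8 was 2.82. *Apoe* was 1.22 higher (SE 0.08, adjusted p = 7.39e-15), at 2667 to 4760 CPM against 1270.3 to 1590 CPM, also without overlap. *Spp1* (1.11, SE 0.14, adjusted p = 3.51e-07), *Gpnmb* (1.00, SE 0.11, adjusted p = 1.53e-08), *Lgals3* (0.42, SE 0.07, adjusted p = 3.33e-05) and *Plin2* (0.33, SE 0.08, adjusted p = 0.0100) were higher in 8 of 8 mice. *Spp1* was seen in 15.5% of C1qa-low cells, below its 18.4% in lymphoid cells, so its difference is not read as expression by C1qa-low cells. *Fabp5* rose by 0.55 in 7 mice and *Cd36* by 0.98 in 6, and *Cd9* and *Fabp4* were not called (0.14 and 0.04, adjusted p = 0.642 and 0.964). Macrophage and monocyte genes were not summed by *Trem2* class in either gate, so the part of cell makeup in the *Trem2* differences was not tested.

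Cells with a dendritic cell marker made up 17.5% ± 0.81 (SD, n = 2), 15.4% ± 3.2 (n = 3) and 12.2% ± 3.5 (n = 3) of C1qa-low cells in parental, E0771-Res1 and E0771-Res2 tumors. Without them *Spp1* was 0.24 higher with *Trem2* (adjusted p = 0.547), *Plin2* 0.16 (adjusted p = 0.353) and *Cd36* 0.76 (adjusted p = 0.0985), and the calls of *Lpl*, *Apoe*, *Gpnmb*, *Fabp5* and *Lgals3* were kept. *Plin2* kept its call in 12 of 19 alternatives and was also lost without E0771-Res2 replicate 1 (adjusted p = 0.0563), at 1000 UMIs, with no low-count filter, with all genes kept, with *C1qa* limits of 5 and 0 and in cells with no lymphoid or epithelial UMI (adjusted p = 0.101 to 0.652). With those *C1qa* limits *Spp1* and *Fabp5* were lost too (adjusted p = 0.437 and 0.115). None of the 10 genes differed between gates in its *Trem2* difference by edgeR (0 called; 0.219% of 4112 genes). At an unadjusted p under 0.05, 4 of the 10 did, against 325 of all 4112 genes. *Lpl* was among the 4 (C1qa-high minus C1qa-low -0.88, SE 0.23, adjusted p = 0.0854).

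**Figure D3:**
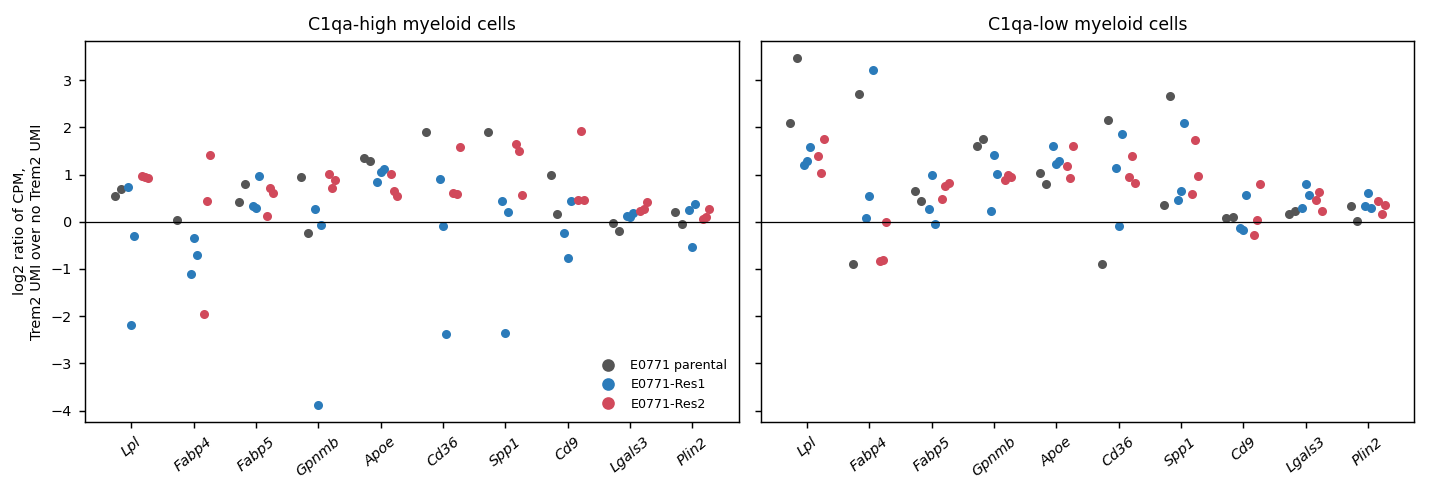
Log2 ratio of CPM in cells with a *Trem2* UMI over cells without, per mouse, in C1qa-high and C1qa-low cells thinned to 2000 UMIs. Each point is a mouse colored by tumor line, and parental replicate 3 is left out for C1qa-high *Fabp4*, *Cd36* and *Spp1*, where it had 0 UMIs with *Trem2*. *Apoe* lies above 0 in 8 of 8 mice in both gates, and *Lpl* in 6 of 8 C1qa-high and 8 of 8 C1qa-low comparisons.

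Genes known to accompany this state were summarized from a list of 20, which with *Trem2* left out holds 19. It was chosen with earlier results of these data known, so its counts are a description and not independent support. Of the 18 tested, 9 were higher with *Trem2* in C1qa-high and 13 in C1qa-low cells, and none was lower (medians 0.25 and 0.48). The macrophage elastase *Mmp12* (1.16 and 1.78, adjusted p = 4.27e-11 and 2.44e-09) and the cathepsins *Ctsk* (0.73 and 1.37) and *Ctsl* (0.71 and 1.29) were the largest. In a list of 27 other lipid-handling genes, 2 of 12 tested were higher and 1 lower in C1qa-high cells: the cholesterol exporter *Abca1* (0.91, SE 0.21, adjusted p = 0.00313) and the apolipoprotein *Apoc2* (0.57, SE 0.16, adjusted p = 0.0151) were higher, and *Nr1h3*, which encodes the sterol-sensing nuclear receptor LXRα, was lower (-0.38, SE 0.11, adjusted p = 0.0269). In C1qa-low cells 3 of 14 were higher and none lower, *Apoc2* the most (0.84, SE 0.13, adjusted p = 1.26e-05). Between gates, 16 of the 20 accompanying genes were higher and 3 lower in C1qa-high cells, where 53.6% of all genes were called, with the lysosomal phosphatase *Acp5* at 1.70 (SE 0.10, adjusted p = 3.24e-11). The lipid-handling list was split, 8 higher and 9 lower of 24. *Abca1* was 1.24 higher (SE 0.13, adjusted p = 1.81e-07).

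The third comparison was among tumor lines, in which the comparisons of E0771-Res1 and E0771-Res2 with parental share the same 2 parental mice. In C1qa-high cells, *Lpl* was at 214 and 215 CPM in the parental tumors, 563, 491 and 503 CPM in E0771-Res1 tumors and 803, 683 and 743 CPM in E0771-Res2. The 3 lines did not overlap. Against parental, *Lpl* was higher by 1.27 in E0771-Res1 (SE 0.12, adjusted p = 1.24e-04) and by 1.79 in E0771-Res2 (SE 0.12, adjusted p = 1.05e-06), and E0771-Res2 exceeded E0771-Res1 by 0.52 (SE 0.09, adjusted p = 0.00559), a call that was lost with *C1qa* limits of 5 and 0 (0.28, adjusted p = 0.178). Its partner in uptake, *Cd36*, followed the same order at a much lower level, with 16.4 and 17.2 CPM in parental, 45.1, 53.8 and 50.3 CPM in E0771-Res1 tumors and 65.6, 89.0 and 69.5 CPM in E0771-Res2. The lines again did not overlap, and the differences from parental were 1.52 (SE 0.23, adjusted p = 0.00898) and 2.13 (SE 0.22, adjusted p = 1.12e-04). The parental values rest on 25 and 13 *Cd36* UMIs.

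*Apoe* was at 5285 and 4872 CPM in parental, 8438, 9550.3 and 5944 CPM in E0771-Res1 tumors and 8486, 7942 and 8086 CPM in E0771-Res2. The resistant lines overlapped each other and not the parental tumors, and the difference was called for E0771-Res2 (0.68, SE 0.14, adjusted p = 0.0146) and not for E0771-Res1 (0.63, SE 0.14, adjusted p = 0.0658).

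A different pattern, in which E0771-Res2 stood apart from both other lines, was seen for *Gpnmb* and the fatty acid–binding proteins. *Gpnmb* was at 186 and 176 CPM in parental, 98.9, 142 and 207 CPM in E0771-Res1 tumors and 609, 516 and 556 CPM in E0771-Res2. It was higher in E0771-Res2 than in parental by 1.62 (SE 0.22, adjusted p = 0.00123) and than in E0771-Res1 by 1.96 (SE 0.19, adjusted p = 1.13e-04), whereas E0771-Res1 and parental overlapped (-0.34, SE 0.23, adjusted p = 0.626). *Fabp5* was at 2591 and 2403 CPM, at 2331, 2433 and 1834 CPM and at 4411, 4043 and 4073 CPM in the 3 lines. Its difference of E0771-Res2 from parental was 0.73 (SE 0.11, adjusted p = 0.00204) and from E0771-Res1 0.94 (SE 0.10, adjusted p = 1.13e-04). For *Fabp4* the values were 39.5 and 19.8 CPM, 52.0, 39.8 and 40.4 CPM, and 91.5, 223 and 85.7 CPM, and the difference of E0771-Res2 from parental was 1.99 (SE 0.41, adjusted p = 0.0151). The parental values rest on 60 and 15 UMIs. In E0771-Res2 replicate 2, 13 of 233 cells with at least 10 *Fabp4* UMIs held 258 of its 350, and the 2 cells with a *Cfd* UMI held 24.

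*Plin2* and *Lgals3* were called between the resistant lines alone. *Plin2* was at 1053, 1065 and 1087 CPM in E0771-Res2 against 762, 796 and 760 CPM in E0771-Res1 (0.48, SE 0.08, adjusted p = 0.00380), with the parental tumors between at 926 and 876 CPM. *Lgals3* was 0.36 higher in E0771-Res2 than in E0771-Res1 (SE 0.08, adjusted p = 0.0201), a call that was lost without E0771-Res1 replicate 1 or any of the E0771-Res2 mice. *Spp1* was not called among lines (-0.36 and -0.19 against parental, SE 0.36 and 0.36), nor was *Cd9* (1.16 and 0.78, SE 0.28 and 0.28, adjusted p = 0.0917 and 0.172).

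In C1qa-high cells, 2 of the 10 genes were called for E0771-Res1 against parental (0.33% of 8795 genes), 6 for E0771-Res2 against parental (2.44%) and 7 for E0771-Res2 against E0771-Res1 (2.62%), all higher. The last 7 include *Fabp4* (1.49, SE 0.31, adjusted p = 0.0153) and *Cd36* (0.61, SE 0.14, adjusted p = 0.0303), and the *Cd36* call was lost without E0771-Res1 replicate 1, E0771-Res2 replicate 2 or E0771-Res2 replicate 3. The medians over the list were 0.21, 0.76 and 0.50, against 0.01, 0.01 and -0.01 over all genes. Leaving a line with 1 parental mouse assumes that mouse varies as the others do. Without parental replicate 1 or 3, *Cd36* in E0771-Res1 (adjusted p = 0.127 and 0.0802), *Fabp4* in E0771-Res2 (adjusted p = 0.0755 and 0.165) and *Apoe* in E0771-Res2 (adjusted p = 0.0827 and 0.181) lost their calls, as did *Fabp5* in E0771-Res2 without parental replicate 3 (adjusted p = 0.0519) and *Apoe* without E0771-Res2 replicate 1 (adjusted p = 0.0646), and the first 3 were also lost in cells with no lymphoid or epithelial UMI, the stand-in for doublet removal (*Cd36* 1.00, *Fabp4* 1.87 and *Apoe* 0.89, adjusted p = 0.210, 0.0647 and 0.0889). *Lpl* kept its call in both lines and *Gpnmb* and *Cd36* in E0771-Res2. Monocyte genes moved with the lines within this gate: their summed level was 3887 to 4203 CPM in parental, 1753 to 2766 CPM in E0771-Res1 tumors and 1898 to 2384 CPM in E0771-Res2, and the 7 macrophage genes summed to 12421 to 12468, 11501 to 14245 and 14273 to 15610.1 CPM. The limit on *C1qa* was set on unthinned counts, and median depth in this gate averaged 8233, 8647 and 6278 UMIs in the same order. The comparison of lines was not run with cells gated on thinned counts. The part of cell makeup and of depth in these differences in C1qa-high cells was not tested. Fewer cells of a kind and fewer transcripts per cell cannot be told apart in counts summed over a gate.

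**Figure D4:**
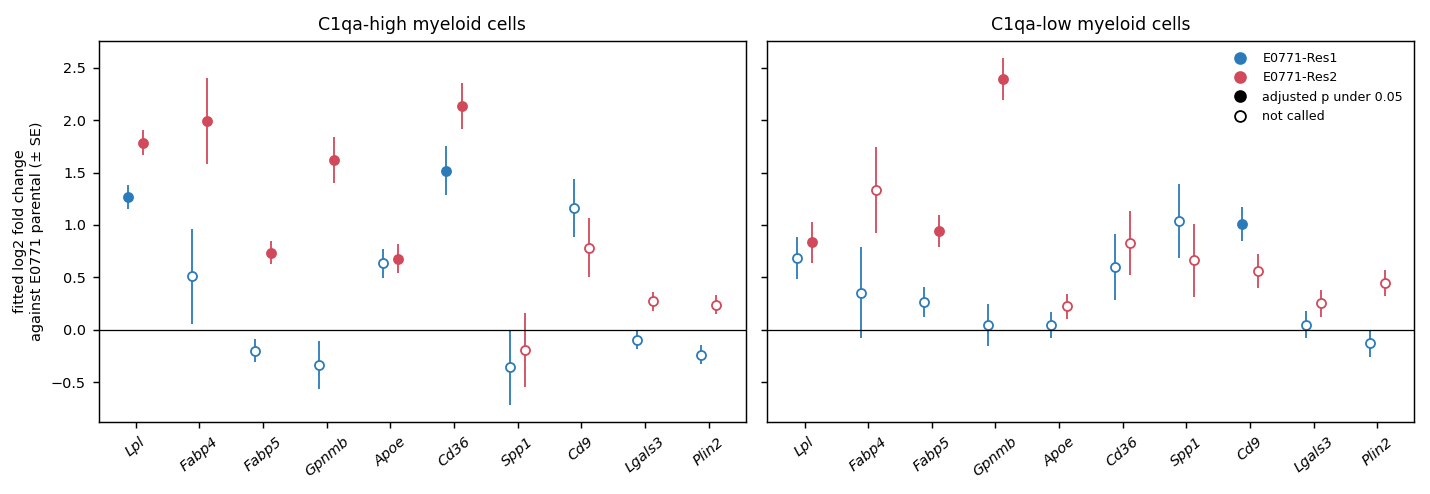
Fitted log2 fold change of each gene against E0771 parental in E0771-Res1 and E0771-Res2, in C1qa-high and C1qa-low cells. Bars are standard errors, filled circles have an adjusted p under 0.05, and both lines share the same 2 parental mice. *Lpl* and *Cd36* are called in both lines in C1qa-high cells, and *Gpnmb* is called in E0771-Res2 alone, in both gates.

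Among C1qa-low cells, *Gpnmb* was again the gene that marked E0771-Res2. It was at 101 and 112 CPM in parental, 88.3, 134 and 112 CPM in E0771-Res1 tumors and 669, 418 and 610.1 CPM in E0771-Res2, 2.39 above parental (SE 0.20, adjusted p = 1.42e-05) and 2.34 above E0771-Res1 (SE 0.17, adjusted p = 1.58e-06). *Fabp5* was 0.94 above parental (SE 0.15, adjusted p = 0.00224) and 0.68 above E0771-Res1 (SE 0.13, adjusted p = 0.00879), at 3656, 2464 and 3374 CPM against 1689 and 1553 CPM in parental. *Lpl* was 0.84 above parental in E0771-Res2 (SE 0.20, adjusted p = 0.0225), and *Plin2* was 0.58 above E0771-Res1 (SE 0.11, adjusted p = 0.00894). The single call for E0771-Res1 was *Cd9*, at 282, 306 and 208 CPM against 130 and 134 CPM (1.01, SE 0.16, adjusted p = 0.0233). In lymphoid-gated cells *Cd9* was also higher in E0771-Res1, at 134, 158 and 117 CPM against 82.5 and 88.1 CPM in parental. Whether the difference is particular to C1qa-low cells was not tested. Counts were 1 of 10 genes for E0771-Res1 (0.125% of 9595 genes), 3 for E0771-Res2 against parental (4.63%) and 3 against E0771-Res1 (3.77%), with list medians of 0.31, 0.74 and 0.22 and medians over all genes of 0.00, 0.02 and 0.01. Without parental replicate 1 or 3, *Cd9* (adjusted p = 0.250 and 0.650), *Lpl* (adjusted p = 0.278 and 0.146) and *Fabp5* (adjusted p = 0.0628 and 0.0778) lost their calls and *Gpnmb* kept its call. *Lpl* was also lost without E0771-Res2 replicate 1 (adjusted p = 0.0578), and the differences of *Fabp5* and *Plin2* from E0771-Res1 without E0771-Res2 replicate 3 (adjusted p = 0.0533 and 0.0570). The summed monocyte genes were 11834 to 11876 CPM in parental, 8182 to 10066 CPM in E0771-Res1 tumors and 7859 to 10003 CPM in E0771-Res2. In the same order, the 7 macrophage genes summed to 1886 to 1939, 1655 to 1880 and 2106 to 2624 CPM. The limit on *C1qa* was set on unthinned counts, and median depth in this gate averaged 6177, 5798 and 4386 UMIs. The part of cell makeup and depth in these differences was not tested.

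Whether the gate difference itself changed with the line was tested in a fit of both gates. *Lpl* differed: its C1qa-high to C1qa-low difference was 0.98 larger in E0771-Res2 than in parental tumors (SE 0.18, adjusted p = 0.00735), and 0.59 larger in E0771-Res1 (SE 0.18, adjusted p = 0.272). The *Lpl* call was lost without parental replicate 1 (1.12, adjusted p = 0.0693), parental replicate 3 (0.91, adjusted p = 0.111) or E0771-Res2 replicate 3 (0.87, adjusted p = 0.0699), and in cells with no lymphoid or epithelial UMI (0.71, adjusted p = 0.308). *Gpnmb* had the opposite sign, -0.75 (SE 0.19, adjusted p = 0.0854). None of the 10 was called for E0771-Res1 by edgeR (0.122% of 9804 genes) and 1 for E0771-Res2 (0.49%). At an unadjusted p under 0.05, E0771-Res1 had 5 of the 10 genes and 708 of all 9804.

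The accompanying genes followed both patterns. *Mmp12* rose in C1qa-high cells of both lines (2.66 and 2.92, SE 0.31 and 0.31, adjusted p = 0.00136 and 1.15e-04), as did *Trem2* (0.99 and 1.43, adjusted p = 0.0164 and 2.85e-04). *Ctsk*, the lysosomal cathepsin K, was at 135 to 148 CPM in C1qa-high cells of E0771-Res2 against 28.2 to 46.8 CPM in E0771-Res1 and 34.3 to 44.7 CPM in parental, a difference in log2 level of 1.81 from parental (SE 0.18, adjusted p = 9.74e-05) and 2.12 from E0771-Res1. Of the 20 accompanying genes, 2 were called in E0771-Res1 and 8 in E0771-Res2 against parental in C1qa-high cells, and 0 and 8 in C1qa-low cells, all higher. Of the 27 lipid-handling genes none was called against parental in C1qa-high cells of either line (23 tested). In C1qa-low cells of E0771-Res2, *Pparg*, the fatty acid–sensing nuclear receptor (0.80, SE 0.18, adjusted p = 0.0183), and *Nr1h3* (0.75, SE 0.18, adjusted p = 0.0228) were higher, 2 of 25 tested.

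Which genes vary together from cell to cell was described by Pearson's r of log(1 + UMIs) within each mouse over C1qa-high cells thinned to 2000 UMIs (87 to 479 cells per mouse). The points share a library and a depth, and counts are sparse, so r is a description without a p. The highest of the 45 pairs were *Fabp5* with *Gpnmb* (median r over 8 mice 0.34, range 0.05 to 0.42), *Fabp5* with *Lgals3* (0.33, 0.16 to 0.40) and *Gpnmb* with *Lgals3* (0.29, 0.18 to 0.39), all positive in 8 of 8 mice. *Fabp4* joined them (0.25 with *Gpnmb*, 0.24 with *Fabp5*), as did *Plin2* (0.25 with *Lgals3*). A separate pair was *Spp1* with *Cd9* (0.28, 0.22 to 0.31), whose detection in C1qa-high cells was not clearly above that in lymphoid cells. *Lpl* went with *Cd36* (0.18), positive in 6 mice and negative in 2.

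Within this gate, *Apoe* stood outside these groups. Its r was 0.32 with *C1qa* and 0.29 with *Trem2*, positive in 8 of 8 mice, and -0.18 with *Lgals3*, -0.13 with *Cd9* and -0.07 with *Spp1*, negative in 8 of 8. Also within it, *Fabp5*, *Gpnmb*, *Lgals3*, *Plin2*, *Cd36*, *Cd9* and *Spp1* had negative r with *C1qa* in every mouse (medians -0.19 to -0.07). Over all myeloid cells, median r with *C1qa* was positive for *Plin2* (0.13), *Fabp5* (0.09), *Lgals3* (0.05) and *Gpnmb* (0.03). It stayed negative for *Cd9* (-0.08), *Spp1* (-0.06) and *Cd36* (-0.01). There *Apoe* went with *Fabp5* and *Lpl* (0.11 each), *Plin2* (0.09) and *Cd36* (0.04) in 8 of 8 mice. Its medians with *Lgals3*, *Cd9* and *Spp1* stayed negative. By line, *Fabp5* with *Gpnmb* in C1qa-high cells had an r of 0.32 to 0.36 in parental mice, 0.05 to 0.33 in E0771-Res1 mice and 0.35 to 0.42 in E0771-Res2 mice.

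**Figure D5:**
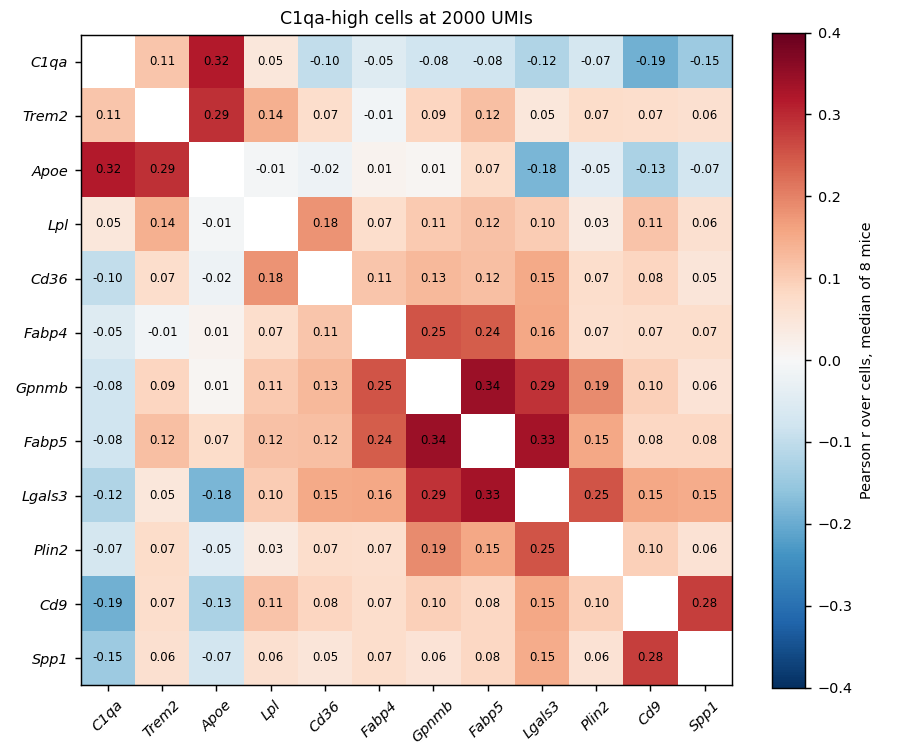
Median over 8 mice of Pearson's r between genes over C1qa-high cells at 2000 UMIs, with *C1qa* and *Trem2* added. Red is positive and blue negative. *Gpnmb*, *Fabp5* and *Lgals3* form the strongest block (0.29 to 0.34), *Spp1* pairs with *Cd9* (0.28), and *Apoe* pairs with *C1qa* and *Trem2* (0.32 and 0.29).

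Against all 2913 other genes seen in at least 10% of C1qa-high cells or on the list, *Fabp5* and *Gpnmb* were each other's first partner by median r, as were *Spp1* and *Cd9*. *Cd36* had *Lpl* as its first partner and was the fourth of *Lpl*. The first partner of *Plin2* was *Lgals3*, and that of *Fabp4* was *Gpnmb*. Outside the list, the most similar genes were *Ctsk* (0.31) and *Ctsb* (0.28) for *Gpnmb*, *Ctsb* (0.29) for *Fabp5*, the ferritin genes *Fth1* (0.43) and *Ftl1* (0.41) for *Lgals3*, *Ftl1* for *Plin2* (0.24), *Mmp12* for *Lpl* (0.25) and *Cd36* (0.17), *Anxa2* for *Spp1* (0.15), *Ahnak* for *Cd9* (0.18) and *Syngr1* for *Fabp4* (0.14). *Apoe* had *Ms4a7* (0.43), *Lgmn* (0.33) and *Selenop* (0.33), genes of mature tissue macrophages.

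The same grouping was seen as levels. C1qa-high cells with a *Gpnmb* UMI had a median over mice of 5.77 times the *Fabp4*, 2.42 times the *Fabp5* and 1.58 times the *Lgals3* level of cells without, each higher in 8 of 8 mice, and 0.954 times the *Apoe* level, higher in 2 of 8. In the 7 mice with at least 10 cells on each side, cells with a *Cd9* UMI had 5.75 times the *Spp1* level (1.90 to 7.55, higher in 7 of 7) and 0.853 times the *Apoe* level (higher in 0 of 7). These ratios were taken on the same cells as the correlations and are not independent of them. Free RNA and doublets were not tested as sources of the *Spp1* and *Cd9* UMIs.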

How the data were processed

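CD45+ cells of each tumor were labelled with Cell Multiplexing Oligos, pooled and sequenced with 10x Genomics Chromium 3′ v3.1 chemistry. Per the file headers, the authors made the deposited counts (UMIs per gene and cell, not normalized) with Cell Ranger 6.1.2, and the processing notes name mm10 and Seurat. All 32285 genes were read by symbol, of which 38 symbols repeat, and the 9 oligo tags were not used. Cells with 500 to 6000 genes and under 10% mitochondrial UMIs were kept. Myeloid cells had UMIs of at least 4 of 10 myeloid genes and at most 1 lymphoid UMI. No doublet caller was run, and cells with no lymphoid or epithelial UMI served as an alternative.

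All deposited cells held 5036667 to 18894504 UMIs per mouse. Counts were summed per mouse and gate (757114 to 4520715 UMIs per sum), leaving out 8626 mitochondrial, ribosomal-protein and Gm-numbered genes. They were tested with the quasi-likelihood test of edgeR 4.0.16 (limma 3.58.1, R 4.3.3, TMM scaling, filterByExpr) on all genes, with Benjamini-Hochberg adjustment and a threshold of 0.05. Mouse was a block between gates and between *Trem2* classes. Lines were compared without a block. For *Trem2*, detection and correlations, cells were thinned at random to 2000 UMIs, leaving out 13 C1qa-high and 648 C1qa-low cells below that depth. Levels in CPM are UMIs per 1000000 UMIs of the summed cells. Shares were compared by exact permutation (scipy 1.17.1, numpy 2.4.6, pandas 2.3.3, Python 3.11.15). The steps were tested on simulated data.

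Replicates are the mice that the labels number. In the edgeR comparisons among lines, p-values measure the spread between mice that carry the same line. Between gates and between *Trem2* classes, p-values measure the spread of within-mouse differences over mice of all lines. That spread includes any change of the difference with the line. The permutation tests of shares pooled the mice of both resistant lines against the parental mice. Same-numbered mice of different lines correlated from -0.07 to 0.127 in C1qa-high and from -0.07 to 0.246 in C1qa-low cells. The highest value in both gates was that of replicate 3 of E0771-Res1 and E0771-Res2. Differently numbered mice were not correlated, so these values cannot tell whether the numbers pair the mice. The members and lists were chosen with earlier results of these data known. Every member is named. Of the lists of 20 and 27 genes, at most 3 called genes per direction with an average log2 CPM of at least 5 are named, by size, and as correlated partners the 3 highest per member, except that 1 gene of the lists is not reported here. Alternatives were all deposited cells, all genes kept, DESeq2 1.42.0, RLE scaling, no low-count filter, other *C1qa* limits, other depths, no dendritic-marker cells, no mouse block, a replicate block and leaving out each mouse.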

Additional observations from a re-analysis of the deposited data

Results flagged for a closer look

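Among 27 sets of 8 mice checked for a mouse far from the others, 3 had one, and chance flags about 1 in 20 groups. Another 3 sets (*Fabp4*, *Cd36* and *Spp1* with over without *Trem2* in C1qa-high cells) were not checked, since parental replicate 3 had 0 UMIs with *Trem2*. The log2 ratio of cells with over cells without *Trem2* in C1qa-high cells was lowest in E0771-Res1 replicate 2 for *Lpl* (-2.20) and *Gpnmb* (-3.87), a mouse with 35 cells holding *Trem2*. In C1qa-low cells the *Lpl* ratio was highest in parental replicate 3 (3.47), with 16 such cells.

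The gate difference of *Lpl* was 0.98 larger in E0771-Res2 than in parental tumors (edgeR adjusted p = 0.00735), a difference between groups under the same contrast.

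In 4 further cases each mouse of one line lay above 0 and each mouse of another below, and these differences were not tested. They are given as mean log2 ratios. *Cd36* in C1qa-high over C1qa-low cells was 0.76 in E0771-Res2 and -0.58 in parental. With over without *Trem2* in C1qa-high cells, *Lgals3* was 0.14 in E0771-Res1 and 0.30 in E0771-Res2 against -0.12 in parental. In C1qa-low cells *Fabp4* was 1.28 in E0771-Res1 and -0.55 in E0771-Res2.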

How the results depend on the processing

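Of 44 calls of single genes, 22 were kept under all alternatives run for them, among them *Apoe* and *Lpl* between gates, *Lpl* in C1qa-high cells of both resistant lines against parental and *Gpnmb* in E0771-Res2 in both gates. In 54 alternatives a value changed sign, none of them called, and 1 of the 44 calls (*Cd36* between gates) had such a value. The cause was not tested. Precision is limited by the 2 parental mice, whose removal leaves 1, and by sparse counts of *Fabp4*, *Cd36* and *Spp1*. The split by *Trem2* rests on as few as 16 cells in a mouse.

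The number of the 10 genes called with *Trem2* in C1qa-high cells was 2 under DESeq2 and 3 without the mouse block. In C1qa-low cells it was 4 with *C1qa* limits of 5 and 0 and 5 without dendritic-marker cells. For the *Trem2* difference between gates it was 1 without the low-count filter and 2 with all genes kept. For E0771-Res1 against parental in C1qa-high cells it was 4 without the filter and 1 without lymphoid or epithelial UMIs, and in C1qa-low cells 3 without the filter, 2 under DESeq2, 2 without lymphoid or epithelial UMIs and 0 with the other *C1qa* limits. For E0771-Res2 against parental in C1qa-low cells it was 8 without the filter, 5 under DESeq2, 6 without lymphoid or epithelial UMIs and 5 with the other limits, and against E0771-Res1 6 without the filter. For the gate difference in E0771-Res1 it was 4 without the filter and 1 without lymphoid or epithelial UMIs, and 5 and 0 for E0771-Res2. These counts, and those with 1 mouse left out below, are given without the share of all genes called at the same setting. The calls over all genes moved with the setting too, so the counts are not read as results about the list.

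Leaving out 1 mouse gave 1 to 5 genes for E0771-Res1 and 3 to 6 for E0771-Res2 against parental in C1qa-high cells. In C1qa-low cells it gave 0 to 1, 1 to 7 and, between the resistant lines, 1 to 4, and for the gate difference 0 to 1 and 0 to 2 in the resistant lines. Against parental within a gate, the lowest counts came without a parental mouse, and between the resistant lines without E0771-Res2 replicate 3. The replicate number was also used as a block, though whether it pairs the mice was not settled. It gave 2 genes for E0771-Res1 in C1qa-low cells (*Cd9* alone without it), with 38 against 12 of all genes. It moved no other count of calls by over 1.5 times.

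Over all genes, the calls ranged over the alternatives other than left-out mice from 2457 to 5231 between gates, 66 to 283 and 92 to 505 for *Trem2* in C1qa-high and C1qa-low cells, and 3 to 33 for its difference. For E0771-Res1, E0771-Res2 and their difference they ranged from 28 to 296, 121 to 524 and 167 to 522 in C1qa-high cells, and from 0 to 221, 248 to 801 and 175 to 734 in C1qa-low cells. For the gate difference they ranged from 4 to 92 and 26 to 157.

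Signs changed as follows, on the log2 scale. Between gates, *Fabp4* was -0.083 under DESeq2, -0.022 without dendritic-marker cells and -0.063 gated on thinned counts, *Lgals3* -0.025 without dendritic-marker cells and *Cd36* -0.067 gated on thinned counts. With *Trem2* in C1qa-low cells, *Fabp4* was -0.10 and *Cd9* -0.027 without the filter, and *Fabp4* -0.14 with all genes kept. For the *Trem2* difference between gates, *Fabp5* was 0.10 without the filter, *Fabp4* 0.40 and *Cd36* 0.26 with all genes kept, and *Fabp4* 0.42 without lymphoid or epithelial UMIs. Without those UMIs, *Fabp5* was 0.27 and *Lgals3* 0.022 in C1qa-high cells of E0771-Res1, and the gate differences were -1.17 (*Fabp4*) and 0.0099 (*Fabp5*) for E0771-Res1, against -0.41 and 0.014 for E0771-Res2. *Spp1* was -0.10 between the resistant lines in C1qa-high cells with the other *C1qa* limits, and *Gpnmb* -0.031 in C1qa-low cells of E0771-Res1 without dendritic-marker cells.

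Leaving out 1 mouse, values that changed sign ranged from -0.28 to 0.23 for *Fabp4* between gates. With *Trem2* in C1qa-low cells they ranged from -0.16 to 0.33 for *Fabp4* and -0.0041 to 0.22 for *Cd9*, and for the difference between gates from -0.69 to 0.0087 for *Fabp4*, -0.17 to 0.036 for *Fabp5* and -0.41 to 0.040 for *Cd36*. In C1qa-high cells *Spp1* ranged from -0.90 to 0.076 for E0771-Res1, -0.63 to 0.24 for E0771-Res2 and -0.26 to 0.70 between them, and *Apoe* from -0.12 to 0.19 between them. In C1qa-low cells of E0771-Res1 the ranges were -0.31 to 1.23 for *Fabp4*, -0.11 to 0.23 for *Gpnmb*, -0.063 to 0.16 for *Apoe* and -0.053 to 0.16 for *Lgals3*, and *Lpl* between the resistant lines ranged from -0.13 to 0.30. Gate differences ranged from -0.88 to 1.65 for *Fabp4* and -0.13 to 0.43 for *Cd9* in E0771-Res1, and from -0.54 to 1.97 for *Fabp4*, -1.83 to 0.048 for *Spp1*, -0.092 to 0.50 for *Cd9* and -0.087 to 0.064 for *Lgals3* in E0771-Res2.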

Other observations

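*Spp1* was higher in lymphoid-gated cells than in either myeloid gate at the median over mice, 607 CPM (88.1 to 1128) against 406 CPM in C1qa-low and 200.2 CPM in C1qa-high cells. *Cd9* was at a median of 116 CPM (82.5 to 172) in lymphoid-gated cells, near its 112 CPM in C1qa-high cells. The other 8 members were lower in lymphoid-gated than in C1qa-high cells at the median, *Apoe* at 397 CPM and *Lgals3* at 955 CPM. No test was run on these values.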
